A study of Rattus norvegicus with 6 samples.

Results

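Adpgk and 8 further genes of the upper and terminal steps of glycolysis were followed in the rostral ventrolateral medulla, the brainstem region that drives sympathetic outflow to the heart and vessels. The members are all probe sets of the deposited log2 table whose gene symbol is exactly Adpgk, Hk1, Hk2, Gpi, Pfkm, Pfkl, Pfkp, Aldoa, Pkm or Ldha. This gave 9 genes of 13683 on the array, read by 16 of its 31099 probe sets. No set carried Pkm, the pyruvate kinase gene, as its only symbol, so Pkm has no value among the members. The list was chosen by the difference in Adpgk signal between the strains in earlier results of these data, so that difference is given as a description without a test. The other symbols were listed for their place in the pathway, with those results known, and limma's p-values are given for them.

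Spontaneously hypertensive rats (SHR), bred for raised blood pressure, were set against rats labelled Wistar-Kyoko (WKY), taken here as the normotensive Wistar-Kyoto strain. Each strain had 3 animals and each animal 1 Affymetrix Rat 230 2.0 array, so n counts animals. All were untreated, weighed between 250 and 350 g and were housed under the same light cycle; age and sex are not given in the sources used here. Inbred strains differ at many loci besides those for blood pressure, so a strain difference cannot be told apart from a difference tied to hypertension.

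Glycolysis traps glucose in the cell by adding a phosphate. Hexokinases do this with ATP at the outer mitochondrial surface and in the cytosol, and hexokinase 1 is the main form in brain. Adpgk encodes an ADP-dependent glucokinase of the endoplasmic reticulum, which makes the same product, glucose 6-phosphate, with ADP as the phosphate donor. Glucose-6-phosphate isomerase then forms fructose 6-phosphate, phosphofructokinase adds the second phosphate at the committed step, and aldolase splits the product into trioses. Lactate dehydrogenase acts at the end of the pathway, on pyruvate.

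MAS5 gave a Present call to 64.8% to 67.0% of the sets on an array. The median log2 signal of an array was 7.43 to 7.47, and arrays correlated at 0.963 to 0.980 over kept probe sets, which are not independent replicates. Th, Dbh and Pnmt, genes of catecholamine synthesis, and the hindbrain gene Hoxa4 were Present on all 6 arrays, while the forebrain genes Emx1, Emx2 and Tbr1 and the cerebellar granule cell gene Gabra6 were Absent on all 6. Neurod6 and Pax6, which forebrain and cerebellar neurons also express, were Present on all 6. The linear signal of Th varied widely among animals, at 751, 994 and 2029 in SHR, against 723, 458 and 3197 in WKY. Dbh and Pnmt were highest in WKY replicate 1 rather than in WKY replicate 3, where Th was highest. Whether the tissue content differed among animals was not tested. Sets with a Present call on 3 or more of the 6 arrays entered the fit, and 13 of the 16 member sets were kept.

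Both Adpgk probe sets gave a higher signal in every SHR animal than in any WKY animal. Adpgk is read by 2 sets on the plus strand of chromosome 8 in Rnor5.0, 1377952_at at 63877618 to 63878008 and 1374958_at at 63878186 to 63878782. The alignments lie 177 bases apart, so the sets read neighbouring stretches, and both were called Present on all 6 arrays. The deposited table gives the alignment of 1377952_at an identity of 81.59% and that of 1374958_at an identity of 100%. It lists 1 other predicted transcript with probe matches for 1377952_at and none for 1374958_at.

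For 1377952_at, the linear signals were 2076, 2450 and 2475 in SHR, against 724, 708 and 643 in WKY. The log2 mean was 11.18 ± 0.14 in SHR against 9.43 ± 0.09 in WKY (SD, n = 3 each), a difference of 1.75 ± 0.09 (SE) or 3.37-fold. The lowest SHR signal was 2.87 times the highest WKY signal. This gap between the strains, 1.52 on the log2 scale, was wider than the spread among animals of either strain.

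For 1374958_at, the linear signals were 1020, 1250 and 1347 in SHR, against 428, 428 and 514 in WKY. The log2 mean was 10.23 ± 0.21 in SHR against 8.83 ± 0.15 in WKY (SD, n = 3 each), a difference of 1.40 ± 0.13 (SE) or 2.63-fold. Again the strains did not overlap, and the lowest SHR signal was 1.98 times the highest WKY signal. In both sets SHR replicate 1 was the lowest of the SHR animals. Among 20796 probe sets in the fit, 1377952_at ranked 35 and 1374958_at 68 by the size of the difference among sets higher in SHR.

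The sets read the same gene on the same arrays, yet the strain difference was larger in one than in the other. The log2 gap between them, 1377952_at minus 1374958_at, was 1.03, 0.97 and 0.88 in SHR, against 0.76, 0.73 and 0.32 in WKY. The gap was thus wider in all 3 SHR animals, by 0.36 on average, which is given as a description because it comes from the values that chose Adpgk. Without WKY replicate 3, whose gap was the narrowest, the difference was 0.22. Both sets had the same direction.

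**Figure D1:**
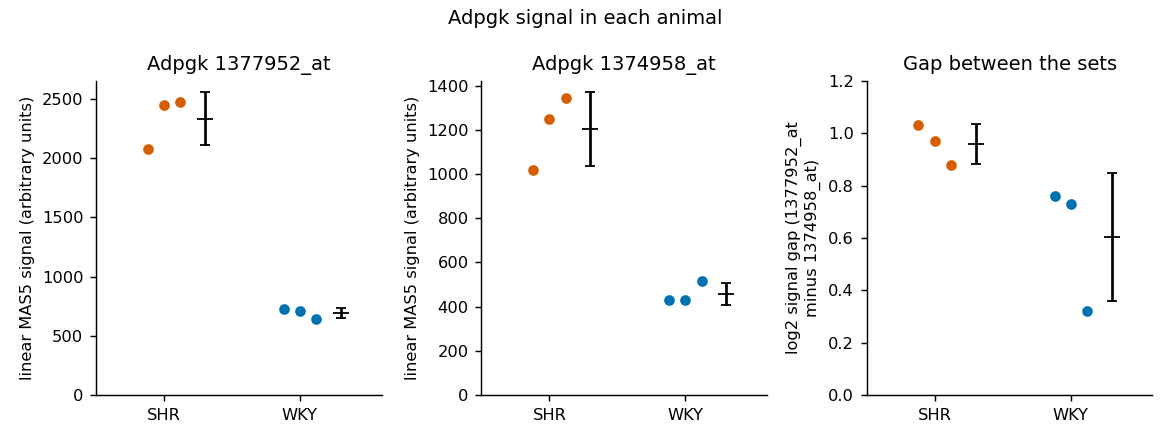
Linear MAS5 signal of the Adpgk probe sets (left and middle, arbitrary units) and the log2 gap between them (right) in each SHR and WKY animal; points are animals, and black bars give the mean and SD beside them (n = 3). In 1377952_at the SHR animals lie between 2076 and 2475 and the WKY animals between 643 and 724.

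The enzymes that follow the same route did not show a difference of that size. Outside Adpgk and the array's own control sets, 8 kept sets of 7 genes were measured: Hk1, Gpi, Pfkm, Pfkl, Pfkp, Aldoa and Ldha. Their differences ran from -0.12 to 0.14 on the log2 scale, with standard errors between 0.04 and 0.13. With the 3 Hk1 control sets, 11 kept sets had a median difference of 0.01, beside 0.00 over all kept sets. Limma called none of the 11 at an adjusted p under 0.05 (adjusted p between 0.261 and 0.985), and 5 had an unadjusted p under 0.05. The lowest adjusted p is that of the Hk1 middle control set, which met the filter through SHR, where it was higher. That set is also counted among the 5 and among the sets whose strains did not overlap. Of all 20796 probe sets tested, 0.923% were called and 9.53% had an unadjusted p under 0.05. The strains did not overlap in 5 of the 11 sets, 3 higher and 2 lower in SHR. Over all kept sets, 15.0% did not overlap, 7.27% higher and 7.77% lower in SHR. As the genes were listed with results of this contrast known, and 3 of these 5 sets read Hk1, nothing is read from these shares.

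**Figure D2:**
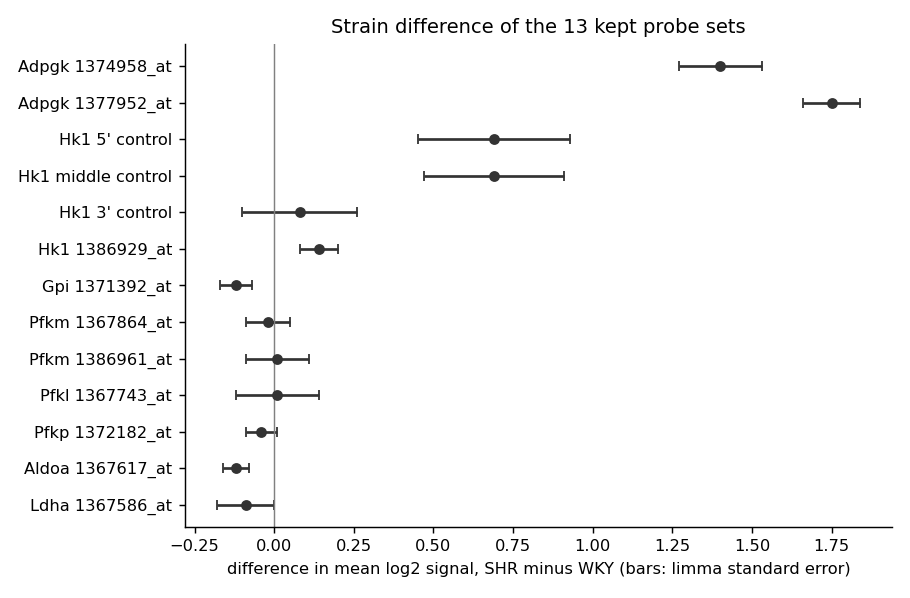
Difference in mean log2 signal, SHR minus WKY, of the 13 kept probe sets (points), with limma's standard error (bars). The Adpgk sets stand at 1.75 and 1.40, the Hk1 5′ and middle control sets at 0.69 each, and the other sets between -0.12 and 0.14.

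Hk1, the ATP-dependent hexokinase of brain, differed little on its regular probe set. For 1386929_at, aligned to chromosome 20 at 33703469 to 33770600, the log2 signals were 11.22, 11.23 and 11.22 in SHR, against 11.10, 11.02 and 11.13 in WKY. The 3 SHR animals were nearly identical and lay just above all 3 WKY animals. The difference was 0.14 ± 0.06 (SE; limma, adjusted p = 0.515).

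The array also holds 3 control sets that read the 5′, middle and 3′ segments of the Hk1 mRNA, and these did not move together. The 5′ set read 6.90, 7.70 and 7.47 in SHR, against 6.59, 6.70 and 6.71 in WKY, a difference of 0.69 ± 0.24 (SE; limma, adjusted p = 0.336). For the middle set the values were 7.61, 8.23 and 7.63 in SHR, against 7.05, 7.38 and 6.98 in WKY, a difference of 0.69 ± 0.22 (SE; limma, adjusted p = 0.261). It was called Present on all 3 SHR arrays and on 1 of 3 WKY arrays. The middle set thus met the filter through SHR, where it was higher. Its difference is a description, and nothing is read from its test. The 3′ set read 7.89, 8.53 and 8.55 in SHR, against 8.31, 8.19 and 8.21 in WKY, a difference of 0.08 ± 0.18 (SE; limma, adjusted p = 0.934). The strains thus lay apart on the 5′ and middle segments and overlapped on the 3′ segment, where SHR replicate 1 was the lowest of all animals.

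The gap between the ends of the transcript, 3′ set minus 5′ set, is a common check of RNA length on these arrays. For Hk1 it was 0.98, 0.83 and 1.08 in SHR, against 1.72, 1.50 and 1.50 in WKY, a difference of -0.61. The gap between the 3′ and middle sets of Hk1 was 0.27, 0.30 and 0.92 in SHR, against 1.26, 0.82 and 1.23 in WKY, a difference of -0.60, and here the strains overlapped. The 3′ minus 5′ gap in the Gapdh control sets was 0.28 ± 0.03 in SHR against 0.26 ± 0.02 in WKY (SD, n = 3 each). In the beta-actin control sets it was 1.44 ± 0.23 in SHR against 1.33 ± 0.05 in WKY (SD, n = 3 each). The strains overlapped in Gapdh and beta-actin. As the gaps of the control sets were added after their values were seen, they are given without a test, and whether the gap in Hk1 differed more than that in the other controls was not tested.

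**Figure D3:**
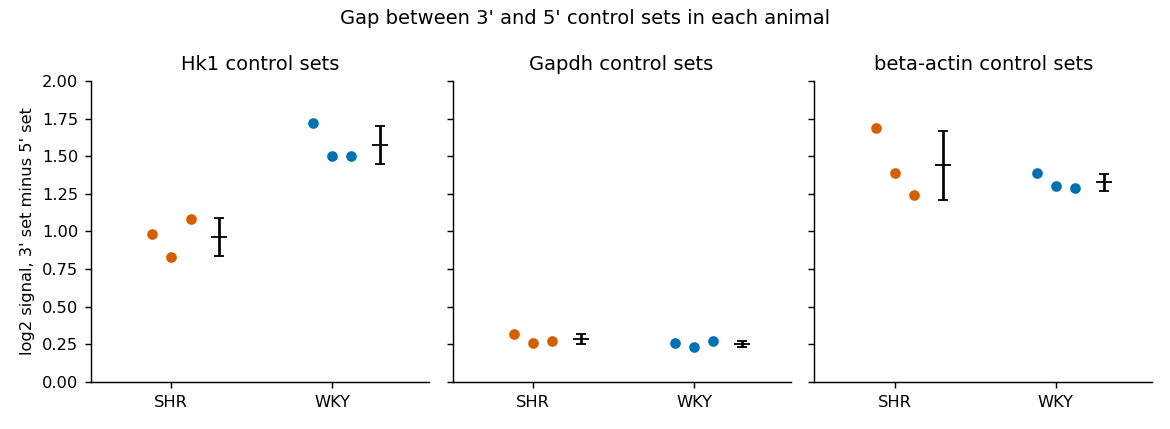
Log2 signal of the 3′ control set minus that of the 5′ control set in each SHR and WKY animal, for Hk1, Gapdh and beta-actin; points are animals, and black bars give the mean and SD (n = 3). The Hk1 gap lies between 0.83 and 1.08 in SHR and between 1.50 and 1.72 in WKY, and the strains overlap in the other panels.

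Hk2, the insulin-regulated hexokinase of muscle and fat, was near the detection limit. Its set, 1369006_at on chromosome 4 at 178238907 to 178288251, was called Present on 1 of 3 SHR arrays and 1 of 3 WKY arrays and was not kept. The linear signals were 37.3, 41.2 and 46.3 in SHR, against 40.9, 70.2 and 36 in WKY, and the strains overlapped. A further Hk1 set, 1398725_at, was Present on 0 of 3 SHR and 1 of 3 WKY arrays, and a further Pfkm set, 1384632_at, on none of the 6. At signals this low no difference could be read in either direction.

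Gpi, which encodes glucose-6-phosphate isomerase, was slightly lower in every SHR animal. Its set, 1371392_at on chromosome 1 at 91207009 to 91213323, read 12.68, 12.73 and 12.66 in SHR, against 12.82, 12.78 and 12.83 in WKY. The difference was -0.12 ± 0.05 (SE; limma, adjusted p = 0.47), and -0.08 under quantile normalization. The gap between the nearest animals of the strains was 0.04. The deposited notes list 2 other transcripts with probe matches for this set.

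The phosphofructokinase genes, whose products assemble into tetramers of muscle, liver and platelet type subunits, overlapped between the strains. Pfkm was read by 1367864_at at 12.14, 11.96 and 11.96 in SHR, against 12.14, 12.02 and 11.94 in WKY. Its second kept set, 1386961_at, differed by 0.01 ± 0.10 (SE), and both align to chromosome 7 at 138837769 to 138857276. Pfkl, the liver type on chromosome 20, read 8.60, 8.69 and 8.80 in SHR, against 8.68, 8.51 and 8.85 in WKY. Pfkp, the platelet type on chromosome 17, read 12.69, 12.65 and 12.69 in SHR, against 12.67, 12.73 and 12.74 in WKY. The differences were -0.02 ± 0.07 for the first Pfkm set, 0.01 ± 0.13 for Pfkl and -0.04 ± 0.05 for Pfkp (SE). Their sign changed under some of the alternatives given in the closing section. The deposited notes list 1 other transcript with probe matches for each of these sets, and none for 1386961_at.

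Aldoa, which encodes the aldolase that splits fructose 1,6-bisphosphate, was read at 13.60, 13.56 and 13.61 in SHR, against 13.76, 13.67 and 13.72 in WKY. All 3 SHR animals lay below all 3 WKY animals. The difference was -0.12 ± 0.04 (SE; limma, adjusted p = 0.357), and -0.06 under quantile normalization. Its set, 1367617_at, aligns to chromosome 1 at 205208237 to 205212211 and to chromosome 18 at 30172486 to 30173936, and the deposited notes list 20 other transcripts with probe matches, so the value is uncertain as to the gene.

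Ldha, which encodes the lactate dehydrogenase subunit that favours lactate formation, overlapped between the strains. Its set, 1367586_at on chromosome 1 at 103974903 to 103984632, read 11.03, 11.14 and 11.31 in SHR, against 11.17, 11.22 and 11.37 in WKY. The difference was -0.09 ± 0.09 (SE; limma, adjusted p = 0.811). It was -0.03 without SHR replicate 1 or WKY replicate 3, and -0.17 without SHR replicate 3 and -0.14 without WKY replicate 1. The deposited notes list 3 other transcripts with probe matches for this set.

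**Figure D4:**
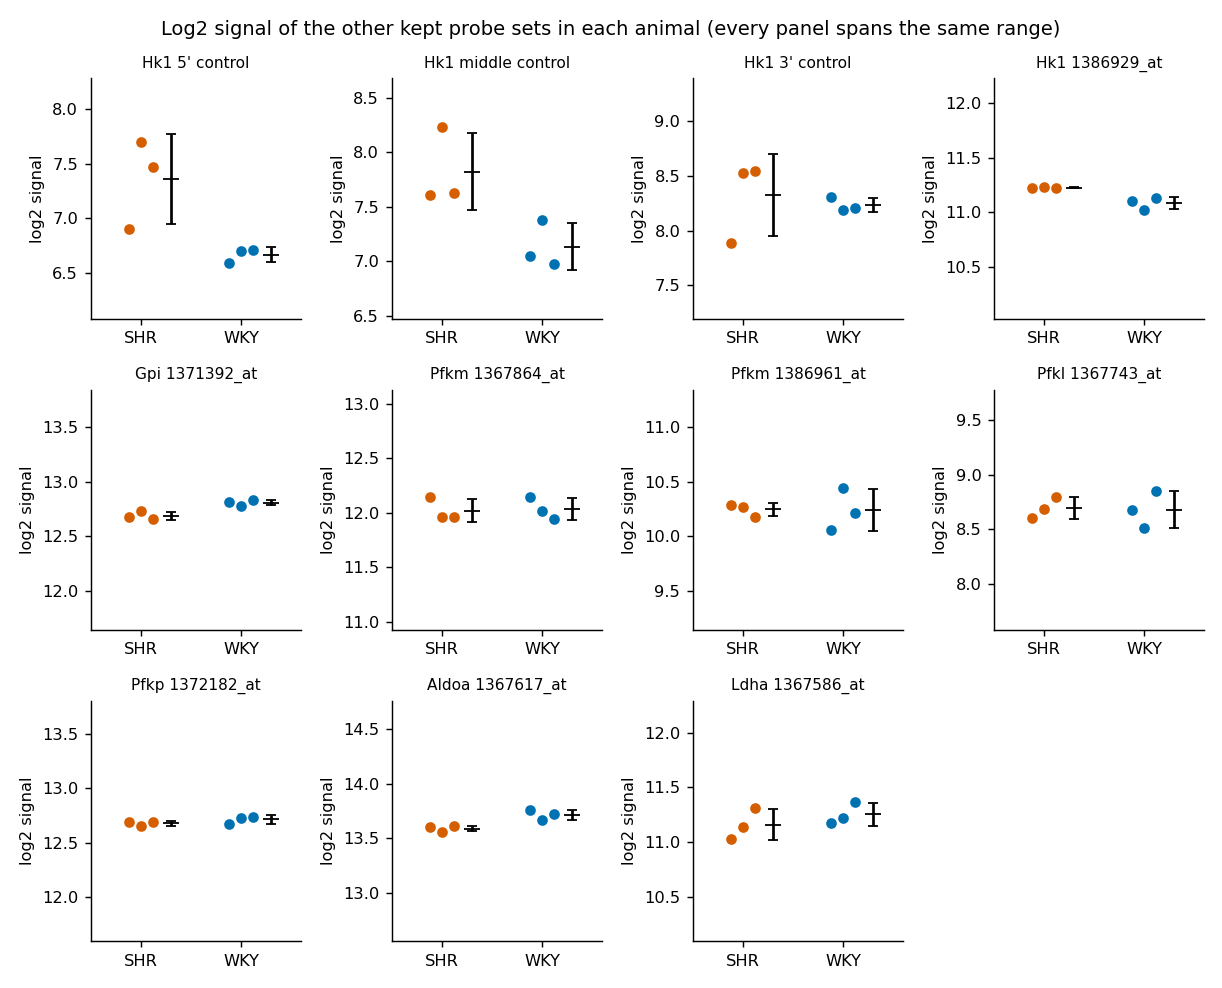
Log2 signal of the 11 kept probe sets outside Adpgk in each SHR and WKY animal; points are animals, black bars give the mean and SD (n = 3), and every panel spans the same log2 range. SHR animals lie above WKY animals in the Hk1 5′, middle and regular sets and below them in Gpi and Aldoa, and the strains overlap in the others.

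The rest of carbohydrate metabolism held no gene that passed the test. Lists of the other glycolytic enzymes, of glucose and lactate transport, of phosphofructokinase regulators and gluconeogenic enzymes, of pyruvate entry into mitochondria, of the pentose phosphate pathway, of glycogen metabolism and of transcription factors held 63 measured genes. Each gene was represented by its brightest kept set, and p-values were adjusted over 10418 genes. Limma called none of the 63, where 0.902% of all genes were called, and 7 had an unadjusted p under 0.05, where 9.60% of all genes did. Their median log2 difference was -0.02, beside 0.00 over all genes, and 35 of the 63 were below 0, where 51.4% of all genes were. The strains did not overlap in 11 of the 63, where 15.3% of all genes did not overlap.

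Of 8 other glycolytic enzymes measured, 6 were below 0 and the median difference was -0.05. Aldoc, the aldolase of astrocytes, differed by -0.10 ± 0.04 (SE; limma, adjusted p = 0.52), and by -0.04 under quantile normalization, and lay lower in all 3 SHR animals. Pgam1, a phosphoglycerate mutase, differed by -0.09 ± 0.05 (SE; adjusted p = 0.66), and by -0.03 under quantile normalization.

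Of 12 transport genes, 9 were below 0, with a median of -0.06. Bsg, or basigin, the partner protein that brings monocarboxylate transporters to the membrane, differed by -0.19 ± 0.07 (SE; limma, adjusted p = 0.347) and lay lower in all 3 SHR animals. Slc2a6, a glucose transporter family member, differed by -0.20 ± 0.11 (SE; adjusted p = 0.628).

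Of 12 genes for the entry of pyruvate into mitochondria, 8 were above 0 and the median was 0.03. Pdk1, a kinase that turns off pyruvate dehydrogenase, read 8.81, 8.44 and 8.59 in SHR, against 8.10, 8.03 and 8.17 in WKY. All SHR animals lay above all WKY animals, at a difference of 0.51 ± 0.14 (SE; limma, adjusted p = 0.181). Pdk4, another such kinase, differed by 0.31 ± 0.12 (SE; adjusted p = 0.436) on the set used and by -0.56 on its other kept set, so its direction is unsettled.

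No gene of the remaining lists passed either. Of 7 pentose phosphate genes 6 were below 0 (median -0.14), with Rpe, an epimerase, at -0.20 ± 0.09 (SE; limma, adjusted p = 0.529). Of 4 phosphofructokinase regulators and gluconeogenic genes 2 were below 0 (median 0.00), with Pck2 at -0.34 ± 0.15 and Pfkfb2 at 0.03 ± 0.18 (SE; adjusted p = 0.492 and 0.976). Another kept set of Pck2 had the opposite sign, at 0.33. Of 12 glycogen and glucose phosphate genes 4 were below 0 (median 0.03), with Gsk3b at 0.64 ± 0.32 and Pgm2 at 0.22 ± 0.12 (SE; adjusted p = 0.587 and 0.636). Gsk3b stood at 0.34 without SHR replicate 1 and at 1.03 without SHR replicate 3. Of 8 transcription factor genes and their regulators 4 were below 0 (median -0.04). Egln3, an oxygen-sensing prolyl hydroxylase, differed by 0.27 ± 0.09 and Mlx, a partner of glucose-sensing factors, by -0.16 ± 0.09 (SE; adjusted p = 0.318 and 0.626).

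Genes beside Adpgk on chromosome 8 did not show a difference of its size. Within 1 Mb of the Adpgk alignments lay 33 kept probe sets, with differences between -0.56 and 0.80, and 11 genes, with differences between -0.39 and 0.58 and a median of 0.16. Limma called none of the 33 sets, where 0.923% of all probe sets were called. It called none of the 11 genes (smallest adjusted p over genes = 0.35), where 0.902% of all genes were called. An unadjusted p under 0.05 was seen in 4 of the 11, where 9.60% of all genes had one. Of the 11 genes 2 were below 0, where 51.4% of all genes were. The strains did not overlap in 4 of them, all higher in SHR, where 15.3% of all genes did not overlap.

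The nearest gene, Bbs4, a component of the complex that carries proteins into cilia, lies 4.6 kb away on the minus strand. Its linear signals were 1100, 1001 and 1021 in SHR, against 877, 873 and 916 in WKY. All SHR animals lay above all WKY animals, at a difference of 0.23 ± 0.08 (SE; limma, adjusted p = 0.35). Further on that side, Arih1, a ubiquitin ligase gene at 49.2 kb, differed by 0.08 ± 0.13 and Hexa, a lysosomal hexosaminidase gene at 233.6 kb, by 0.05 ± 0.09 (SE). On the other side, Neo1, a netrin receptor family gene, differed by 0.32 ± 0.13, Rec114, a meiosis gene, by 0.58 ± 0.24 and Nptn, a synaptic adhesion gene, by -0.03 ± 0.05 (SE). Rec114 stood at 0.36 without SHR replicate 2. The strains lay apart in Neo1 and Rec114 and overlapped in Arih1, Hexa and Nptn.

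**Figure D5:**
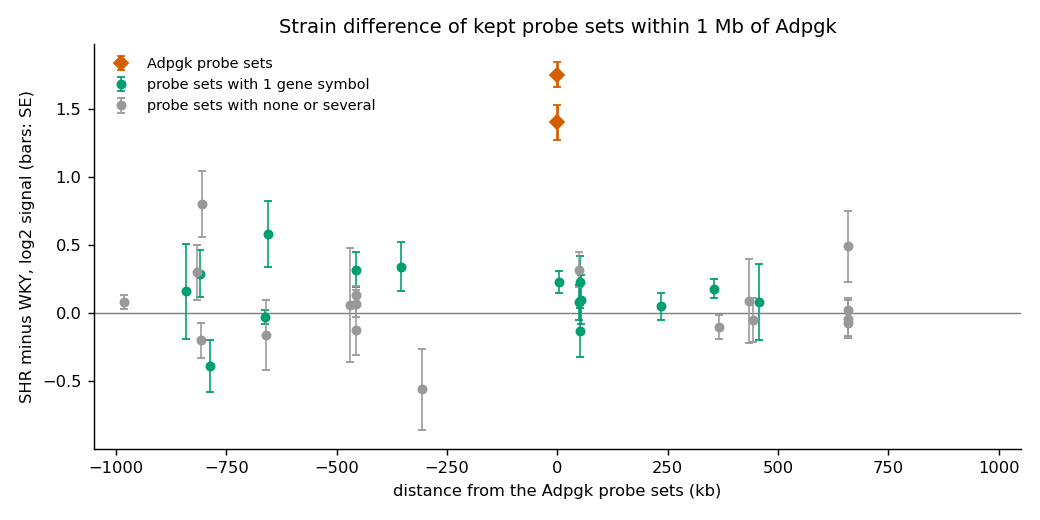
Difference in mean log2 signal, SHR minus WKY (with limma's standard error), of the 33 kept probe sets within 1 Mb of Adpgk, by distance from the Adpgk probe sets in kb. The Adpgk sets (diamonds) stand at 1.75 and 1.40, and the neighbouring sets lie between -0.56 and 0.80.

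Genes with a profile close to that of Adpgk were ranked by the root-mean-square difference between mean-centred log2 signals over the 6 arrays, against 1377952_at. Among 10410 genes the median of this measure was 0.90, and the other Adpgk set stood at 0.23. Chi3l1, a secreted glycoprotein gene of glia on chromosome 13, stood at 0.18, the uncharacterised RGD1566102 on chromosome 2 at 0.19, Septin5, a septin of synapses, at 0.22 and Dcaf6, on chromosome 13, at 0.24. The strain difference of Dcaf6 was 1.38 on the set used and 0.88 as the mean over its sets, so its sets differ. Chi3l1 read 9.91, 9.62 and 10.04 in SHR, against 8.20, 8.37 and 7.98 in WKY, and Septin5 read 10.23, 10.54 and 10.39 in SHR, against 8.97, 9.16 and 8.99 in WKY. As the measure follows the strain difference, these genes were bound to be higher in SHR, and the ranking is a description.

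Fewer cells of a type and less RNA per cell cannot be told apart in tissue samples such as these, so marker genes are set beside the results. Oligodendrocyte markers had a summed linear signal of 89318 to 96826 in SHR, against 97971 to 103581 in WKY. All 10 measured markers were below 0, where 51.4% of all genes were, and their median was -0.08. Limma called none of them, where 0.902% of all genes were called, and 2 had an unadjusted p under 0.05, where 9.60% of all genes did. Mobp differed by -0.17 ± 0.05 and Cnp by -0.15 ± 0.06 (SE). Another kept set of Mobp, at -0.99 ± 0.07 (SE), passed the test among probe sets (limma, adjusted p = 0.000111). A further kept set of Mobp stood at -0.12 ± 0.09 (SE; limma, adjusted p = 0.733), and there the strains overlapped. The summed signal was 90821 to 95643 in SHR and 89294 to 98679 in WKY for 10 neuron markers, and 43224 to 51925 in SHR and 48726 to 52135 in WKY for 8 astrocyte markers. It was 3353 to 4162 in SHR and 3358 to 3937 in WKY for microglia markers, and 4812 to 6584 in SHR and 5866 to 6257 in WKY for endothelial and mural markers. The strains overlapped in these 4 sums. Among neuron genes, Syp differed by -0.21 ± 0.08 and Snap25 by -0.09 ± 0.06 (SE). Among astrocyte genes, S100b differed by -0.14 ± 0.05 and Gfap by -0.47 ± 0.29 (SE). Among microglia genes, Aif1 differed by -0.17 ± 0.11 and P2ry12 by 0.21 ± 0.18 (SE). The strains lay apart in Syp and S100b and overlapped in the others. Gfap had linear signals of 6416, 2449 and 5813 in SHR, against 6875, 6228 and 5612 in WKY. Below 0 were 5 of 10 neuron, 3 of 8 astrocyte, 2 of 8 microglia and 6 of 7 endothelial and mural genes measured. Of all genes, 51.4% were below 0. Limma called none in these 4 lists, where 0.902% of all genes were called. Of the endothelial and mural genes, Vwf, the von Willebrand factor gene, differed by -0.85 ± 0.19 (SE; limma, adjusted p = 0.1). Rgs5, of the same list, differed by 0.27 ± 0.13 (SE), and the strains overlapped. Of the blood cell genes, S100a9, a neutrophil gene, had linear signals of 137, 99.8 and 70.7 in SHR, against 32.8, 34.5 and 24.9 in WKY. It was Present on all 3 SHR arrays and Absent on all 3 WKY arrays, so it entered the fit through SHR alone and no difference is given. Alas2, an erythroid gene, differed by -0.70 ± 0.19 (SE; limma, adjusted p = 0.192), while S100a8 and Epb42 were Absent on all arrays. The summed signal of the blood cell list was 4767 to 6036 in SHR, against 5317 to 8865 in WKY. Most of this sum was Hbb, a haemoglobin gene, at 4511 to 5713 in SHR and 5086 to 8607 in WKY. Hbb differed by -0.38 ± 0.16 (SE; limma, adjusted p = 0.484), and the strains overlapped. Of 7 measured medulla genes 5 were below 0 and none was called, with Hoxb5 at -1.52 ± 0.38 (SE; limma, adjusted p = 0.141). Of 3 measured forebrain and cerebellum genes 2 were below 0 and none was called. The part of these markers in the Adpgk and Hk1 values was not tested.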

How the data were processed

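RNA of 6 animals was amplified and labelled from the 3′ end, per the labels' protocols. The authors deposited 2 tables: log2 signals with detection calls, and linear intensities. The submitters' processing notes name MAS5 without a version. The deposited log2 values equalled the log2 of the linear intensities floored at 1 (largest difference 8.2e-06). The trimmed mean of the linear intensities (2% off each end) was 500.14 on each array, so arrays had been scaled to each other. Probe sequences were not used here, so the part of strain differences in DNA under the probes was not tested.

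Log2 values were used as deposited. Of 57 control sets, the 6 with a gene symbol stayed in the fit. Kept sets were fitted with limma 3.58.1 under R 4.3.3 (lmFit and trended eBayes), strain being the only factor, with 2-sided p-values adjusted by the Benjamini-Hochberg method and calls at an adjusted p under 0.05. Differences are SHR minus WKY. The number of arrays limits the precision, and the median standard error over kept sets was 0.15. The steps were tested on simulated data. Symbols outside the members were updated through Entrez IDs with a RefSeq table of GRCr8, which held 18882 of 19276 sets with 1 symbol. Coordinates are those of the deposited table (Rnor5.0), and exons and UTRs were not assigned.

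The members and lists were chosen with earlier results of these data known. Named were every member set, called genes and the 2 smallest p-values of each list, the 3 nearest neighbours on each side, and the 5 nearest profiles; 2 genes that these rules name are not reported here. The control set gaps of Hk1, Gapdh and beta-actin, and Th, Dbh, Pnmt, S100a8 and Epb42, were added after their values were seen. A permutation test planned for the gap between the Adpgk sets is not given, since the gap comes from the values that chose the gene. As alternatives, the fit was repeated with quantile normalization, with median centring, pseudocounts of 16 and 64, other filters, no variance trend, a replicate block, another rule for a gene's probe set and leaving out each animal.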

Additional observations from a re-analysis of the deposited data

How the results depend on the processing

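Adpgk kept its direction in each of 14 settings per set, at 1.66 to 1.83 for 1377952_at and 1.28 to 1.51 for 1374958_at. This is a description, as Adpgk was chosen for this difference. The other filters, the fit without a variance trend and the replicate block could not move the difference, only its standard error. The gap between its sets was 0.36 to 0.38 with pseudocounts and 0.22 to 0.43 with 1 animal left out. Limma called no other member, carbohydrate gene or neighbour under any alternative run.

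Replicate numbers did not pair the animals (same-number correlations of deviations 0.08, -0.01 and 0.07). The replicate block cannot move a strain difference in this balanced design. It gave 196 called probe sets and 110 called genes over the array, against 192 and 94 without it. Those counts were 63 and 31 without a variance trend, and 78 to 205 and 27 to 90 with 1 animal left out. Leaving out WKY replicate 1, 2 or 3 gave the low counts, 81, 81 and 78 probe sets and 34, 27 and 35 genes. Among marker genes, Hoxb5 was called without SHR replicate 2 (limma, adjusted p = 0.00636), Vwf without SHR replicate 1 (adjusted p = 0.00176) and Mobp as the mean over its sets (-0.43, adjusted p = 0.00958), each lower in SHR. The kept Mobp sets stood at -0.99, -0.17 and -0.12, so that mean rests largely on the first of them.

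Some small differences changed sign. Under quantile normalization Pfkm (1367864_at) stood at 0.01, Pfkp at 0.00 and Nptn at 0.03. Under median centring Pfkm (1386961_at) and Pfkl stood at -0.01. With 1 animal left out the Hk1 3′ control set ranged from -0.03 to 0.30, Pfkm from -0.08 to 0.04 (1367864_at) and from -0.07 to 0.12 (1386961_at), and Pfkl from -0.07 to 0.10. The same range was -0.03 to 0.14 for Hexa, -0.49 to 0.11 for Neurod6, -0.07 to 0.00 for Nptn and -0.09 to 0.25 for Pfkfb2. Without a change of sign it was 0.00 to 0.18 for Arih1, -0.22 to -0.07 for Mlx and -0.26 to -0.13 for Rpe. Pck2 stood at 0.33 when a set had to be Present on all 6 arrays, which leaves its other set, and Pdk4 at -0.13 as the mean over its sets. The cause of the other changes was not tested.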
